A study of Mus musculus with 24 samples.

Results

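Expression of 43 genes that write, erase or bind methylation of histone lysines was followed through reprogramming of neural precursor cells (NPCs) to induced pluripotent stem cells (iPSCs). The genes were taken from a list of histone lysine methyltransferases, demethylases and Polycomb subunits chosen by name, and were the rows of 43 of the 37315 genes in the table of normalized counts. Of these, 3 (Suv39h1, Kdm5c and Kdm6a) lie on the X chromosome. Kdm4d, a histone demethylase gene, stayed between 0 and 7.92 normalized counts in all 24 libraries and was below the filter on low values. The other 42 were tested in every comparison.

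RNA was sequenced from 12 populations with 2 libraries each. All populations came from 1 female cell line, the PaX system, a hybrid of 129S1/SvImJ and CAST/EiJ mice with a GFP reporter on the X chromosome of M. musculus (X mus), a Tsix truncation that directs inactivation to X mus, a Nanog promoter-RFP reporter and a doxycycline-inducible cassette of Myc, Klf4, Oct4 and Sox2. The populations were embryonic stem cells (ESCs) in serum and LIF, NPCs made from them, and cells taken 2, 5 and 7 days after NPCs were plated on irradiated male fibroblast feeders with doxycycline and ascorbic acid. Reprogramming cells had been left untreated (control) or given interferon γ (IFNγ) over the first 5 days, at a concentration of 10 ng/ml, so day 7 cells were 2 days past its removal. Day 2 cells were sorted as negative for the dye CFSE that marked the feeders, day 5 cells as positive for the surface marker SSEA1, and day 7 cells as SSEA1 positive and X-GFP negative, medium or high. Because the X-GFP gates select on activity of X mus, differences between them include those the sort itself made. Nothing in the labels says whether replicates came from separate cultures, so p-values measure the spread between these libraries.

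Methylation of histone lysines is laid down by SET-domain and DOT1L-type methyltransferases and removed by the KDM1 and Jumonji families of demethylases. Polycomb repressive complex 2 (PRC2) places H3K27me3, which CBX subunits of canonical PRC1 read, whereas the RING subunits of PRC1 ubiquitinate histone H2A. H3K9 methylation and TRIM28 serve heterochromatin and silencing of retroelements, and the KMT2 (MLL) enzymes methylate H3K4 at promoters and enhancers. In pluripotent cells Polycomb complexes hold developmental genes silent, and both Polycomb marks and H3K9 methylation accumulate on an inactive X chromosome.

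The normalized counts that the authors deposited were reads per gene divided by 1 size factor per library, and libraries held 24746109 to 37056508 reads on genes. Of these reads, 9.02% to 19.1% fell on mt-Rnr2, the large mitochondrial ribosomal RNA, which moves values rescaled to the same total. Changes are given as differences of log2(normalized count + 1) with their SE, folds are on the same scale, and a gene was called changed at a Benjamini-Hochberg adjusted p under 0.1 over all genes tested with limma. With 2 libraries against 2, an exact two-sided permutation test of a single gene cannot go below p = 0.333. Pluripotency markers matched the ESC and NPC labels. Summed over 10 genes, they were at 151733 to 155538 normalized counts in ESCs and 113 to 145 in NPCs. The 10 fibroblast markers were not limited to cells plated on feeders, at 30803 to 43633 in NPCs and 730 to 778 in ESCs. Feeder RNA was seen at day 2, where 4 Y-linked genes, which this female line lacks, summed to 218 to 253 in control and 125 to 223 in IFNγ-treated cells, against at most 12.5 in every other population. In bulk RNA, fewer cells of a type and less RNA per cell cannot be told apart.

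**Figure D1:**
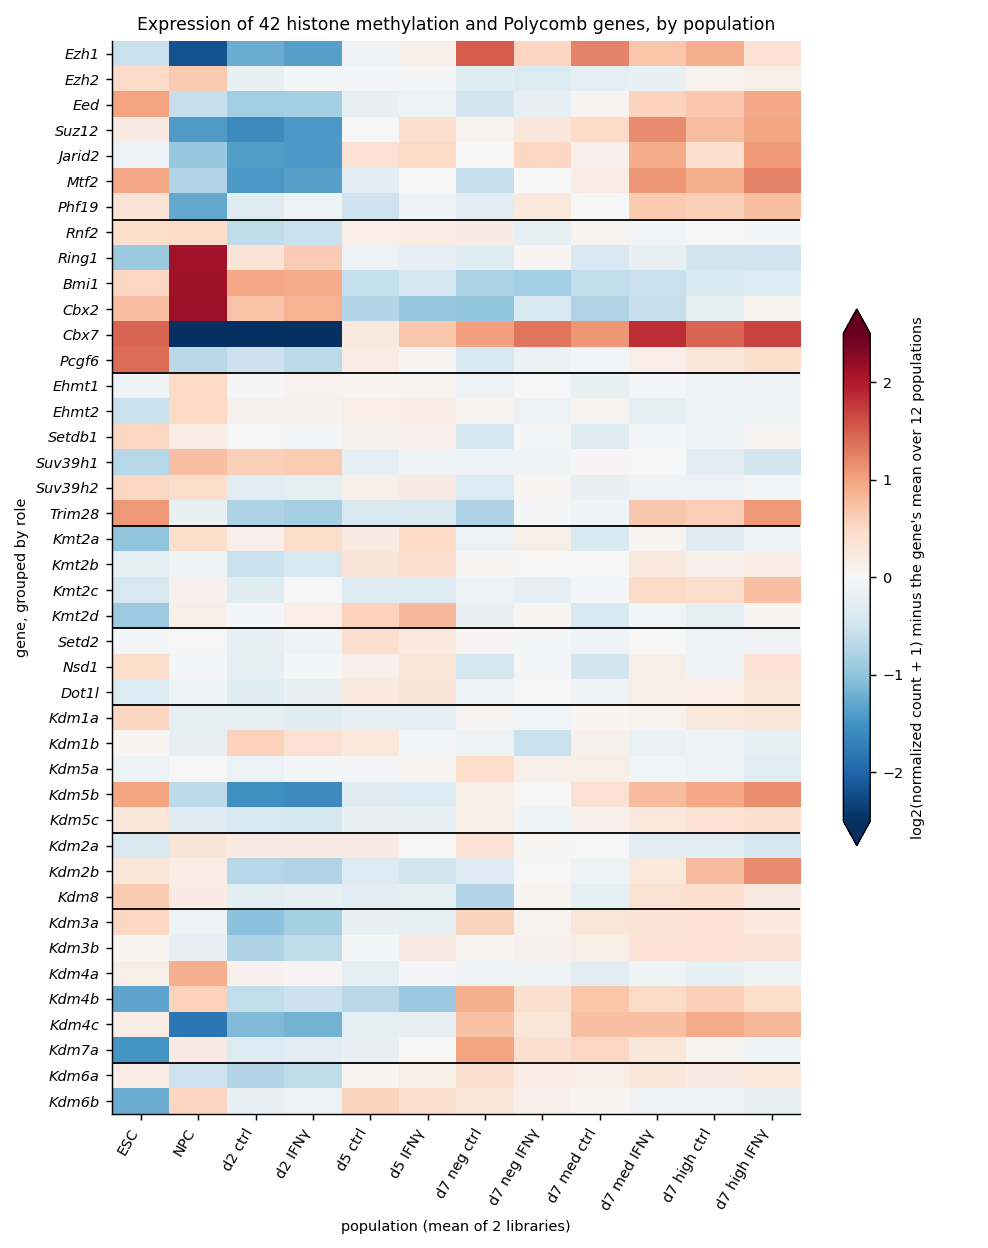
Expression of the 42 tested genes (rows, in blocks by role in the order PRC2, PRC1, H3K9 enzymes with Trim28, H3K4 methyltransferases, H3K36 and H3K79 methyltransferases, then demethylases of H3K4, H3K36, H3K9 and H3K27) in 12 populations (columns), as log2(normalized count + 1) minus the mean of that gene over the populations, with the mean of 2 libraries in each cell and colors ending at ±2.5. Cbx7 is low in NPCs and at day 2 and high in the other populations, while Ring1, Bmi1 and Cbx2 are highest in NPCs.

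By the mean of 2 libraries, 9 genes were highest in NPCs, namely Ezh2, Rnf2, Ring1, Bmi1, Cbx2, Ehmt1, Ehmt2, Suv39h1 and Kdm4a, of which 4 are PRC1 subunits. ESCs were highest for 7, Eed, Pcgf6, Setdb1, Suv39h2, Nsd1, Kdm1a and Kdm8. The 7 genes highest in control X-GFP negative cells at day 7 were Ezh1 and 6 demethylase genes, Kdm5a, Kdm2a, Kdm3a, Kdm4b, Kdm7a and Kdm6a. IFNγ-treated X-GFP high cells were highest for 8, Jarid2, Mtf2, Phf19, Trim28, Kmt2c, Kdm5b, Kdm5c and Kdm2b, and IFNγ-treated X-GFP medium cells for 3, Suz12, Cbx7 and Kdm3b. Day 5 cells with IFNγ were highest for 4 methyltransferase genes, Kmt2a, Kmt2b, Kmt2d and Dot1l, and without it for Setd2 and Kdm6b. Of the rest, Kdm1b was highest in day 2 control cells and Kdm4c in control X-GFP high cells. The highest population mean exceeded the lowest by 1.54 times for Setd2, the H3K36me3 methyltransferase gene, and by 63.9 times for Cbx7. A highest mean does not by itself differ from the next beyond the spread of 2 libraries.

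The promoters of 5 genes, Cbx7, Mtf2, Jarid2, Trim28 and Ezh1, are shown because these genes carried the largest or most repeated changes below. RefSeq promoters on GRCm38.p6 were found for 35 of the 43 genes, and the 250 bases before the first start site listed for each were searched on both strands for 5 motifs. These were the IRF motif (GAAA repeated after 2 bases), the octamer ATGCAAAT, the E2F motif TTTCCCGC, the CCAAT box CCAAT and the GC box GGGCGGG. Capitals mark every match, and each sequence is read 5′ to 3′ on the strand of its gene.
Cbx7, chr15:79932647-79932896, minus strand: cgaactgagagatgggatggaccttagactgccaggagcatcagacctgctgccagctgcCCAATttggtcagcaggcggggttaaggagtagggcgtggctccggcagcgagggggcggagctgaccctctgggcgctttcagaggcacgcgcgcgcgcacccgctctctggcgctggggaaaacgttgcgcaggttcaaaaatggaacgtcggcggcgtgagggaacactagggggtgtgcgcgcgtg
Mtf2, chr5:108065424-108065673, plus strand: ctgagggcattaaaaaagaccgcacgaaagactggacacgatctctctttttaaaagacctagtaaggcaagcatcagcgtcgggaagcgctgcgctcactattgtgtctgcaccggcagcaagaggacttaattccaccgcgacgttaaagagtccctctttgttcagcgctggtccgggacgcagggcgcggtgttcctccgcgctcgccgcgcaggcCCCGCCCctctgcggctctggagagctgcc
Jarid2, chr13:44730524-44730773, plus strand: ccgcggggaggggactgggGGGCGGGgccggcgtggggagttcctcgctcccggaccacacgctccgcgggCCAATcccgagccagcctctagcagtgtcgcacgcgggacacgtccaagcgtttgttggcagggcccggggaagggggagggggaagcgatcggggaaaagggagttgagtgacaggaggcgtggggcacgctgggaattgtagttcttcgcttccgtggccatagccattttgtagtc
Trim28, chr7:13023902-13024151, plus strand: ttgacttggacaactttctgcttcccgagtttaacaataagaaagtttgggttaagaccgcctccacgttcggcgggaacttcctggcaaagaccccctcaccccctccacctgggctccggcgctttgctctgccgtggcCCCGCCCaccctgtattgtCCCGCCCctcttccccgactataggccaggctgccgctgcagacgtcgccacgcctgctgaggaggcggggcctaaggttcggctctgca
Ezh1, chr11:101226464-101226713, minus strand: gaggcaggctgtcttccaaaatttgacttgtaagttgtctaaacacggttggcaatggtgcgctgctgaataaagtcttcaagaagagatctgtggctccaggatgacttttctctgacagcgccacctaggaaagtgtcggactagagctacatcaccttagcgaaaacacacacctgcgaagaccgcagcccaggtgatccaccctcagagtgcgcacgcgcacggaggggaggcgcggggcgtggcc

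The IRF motif and the octamer were in none of the 35 promoters, against 3.04% and 1.61% of the 27025 mouse promoters searched in the same way. The E2F motif was in 2, those of Phf19 and Suz12 (5.71% against 0.929%), and the CCAAT box in 12, among them Cbx7 and Jarid2 (34.3% against 34.5%). The GC box was in 21 (60% against 23.6%), among them Mtf2, Jarid2 and Trim28, while the window of Ezh1 held none of the 5 motifs. These are matches of letters and were not tested as binding sites. The 27025 promoters were not filtered by gene type or expression, while the 35 are all of protein-coding genes, so the shares may compare unlike sets.

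ESCs and NPCs were compared to place both ends of reprogramming. Of the 42 genes, 20 were higher in ESCs and 16 lower, beside all 15911 genes tested, of which 42.2% were higher and 43.4% lower. In PRC2, 6 of 7 genes were higher in ESCs. The catalytic subunit gene Ezh2 was the exception, slightly lower at log2 difference -0.19 ± 0.082 (SE), adjusted p = 0.0775. PRC1 split, with 2 of 6 genes higher and 3 lower. All 10 pluripotency markers were higher in ESCs and all 10 neural markers lower.

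Cbx7, the CBX subunit gene typical of pluripotent cells (GRCm38/mm10, chr15:79915807-79971119, minus strand), was at 4563 and 5336 normalized counts in the 2 ESC libraries and at 114 and 89.6 in the 2 NPC libraries. The populations did not overlap and differed 48.4-fold (log2 difference 5.60 ± 0.15 (SE), adjusted p = 2.58e-06), the widest difference of the 42 genes. Pcgf6, which defines a variant PRC1 of germ cell gene silencing, was at 3605 and 3417 in ESCs and 899 and 749 in NPCs, a 4.27-fold difference (log2 difference 2.09 ± 0.10 (SE), adjusted p = 1.10e-05). Next came the H3K9 demethylase gene Kdm4c, at 3599 and 3802 in ESCs and 945 and 918 in NPCs (3.97-fold, log2 difference 1.99 ± 0.065 (SE), adjusted p = 4.05e-06).

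In the other direction, Ring1, which encodes one of the paired E3 ligases of PRC1, was at 236 and 161 normalized counts in ESCs and 1769 and 1500.4 in NPCs (8.33-fold lower in ESCs, log2 difference -3.06 ± 0.20 (SE), adjusted p = 3.04e-05). The other ligase gene, Rnf2, did not differ by this test, at 5533 and 4631 against 5205 and 5193 (log2 difference -0.04 ± 0.092 (SE), adjusted p = 0.712). Kdm4b, an H3K9 demethylase gene, was at 740.0 and 689.9 in ESCs and 2778 and 2541 in NPCs (3.71-fold lower, log2 difference -1.89 ± 0.080 (SE), adjusted p = 7.45e-06). Kdm6b, an inducible H3K27 demethylase gene, was at 257 and 278 against 935 and 898 (3.42-fold lower, log2 difference -1.77 ± 0.10 (SE), adjusted p = 1.89e-05). So within the KDM4 family Kdm4c was higher in ESCs, while Kdm4b and Kdm4a (log2 difference -0.78) were lower, and of the H3K27 demethylase genes Kdm6a was higher (0.70) and Kdm6b lower.

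Among the remaining PRC2 genes the log2 differences between ESCs and NPCs were 1.70 for Mtf2 and 1.64 for Phf19, both Polycomb-like proteins that recruit PRC2 to CpG islands, 1.62 for Suz12, 1.61 for Ezh1, 1.57 for Eed and 0.81 for the accessory subunit Jarid2. The H3K4 methyltransferase genes went the other way, with Kmt2a (-1.44), Kmt2c (-0.51) and Kmt2d (-1.07) lower in ESCs and Kmt2b not called (-0.11). Of the H3K4 demethylase genes, 4 of 5 were higher in ESCs, led by Kdm5b at 27489 and 25365 normalized counts against 8888 and 8069.6 (log2 difference 1.64 ± 0.078 (SE), adjusted p = 1.03e-05). Trim28, the corepressor of KRAB zinc finger proteins, was at 61982 and 62400.5 in ESCs and 27003 and 24374 in NPCs (log2 difference 1.28 ± 0.081 (SE), adjusted p = 2.81e-05). Rescaled to the same total, the median of all genes moved from -0.03 to -0.15 and 17 genes were higher and 19 lower. No called gene changed direction.

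Per kilobase of exon, the major gene differed between ESCs and NPCs for Cbx7 with Cbx2 and for Pcgf6 with Bmi1. Levels are normalized counts per kb, and exon lengths are those of all annotated exons together. Cbx7 made up 70.4% and 75.4% of the summed level of Cbx7 and Cbx2 in the 2 ESC libraries, but 2.16% and 1.97% in NPCs. Pcgf6 made up 75.7% and 79.3% of Pcgf6 and Bmi1 in ESCs and 22.7% and 19.1% in NPCs, Bmi1 being a PCGF subunit gene of canonical PRC1. This pair leaves out the other PCGF genes. For both pairs the share of the first gene was thus high in ESCs and low in NPCs with no overlap. Ring1 was the minor ligase gene throughout, with 5.15% and 4.23% of Ring1 and Rnf2 in ESCs and 30.2% and 26.9% in NPCs. Ezh1 was the minor gene of Ezh1 and Ezh2 in both, with 21.2% and 24.5% in ESCs and 7.35% and 8.32% in NPCs.

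**Figure D2:**
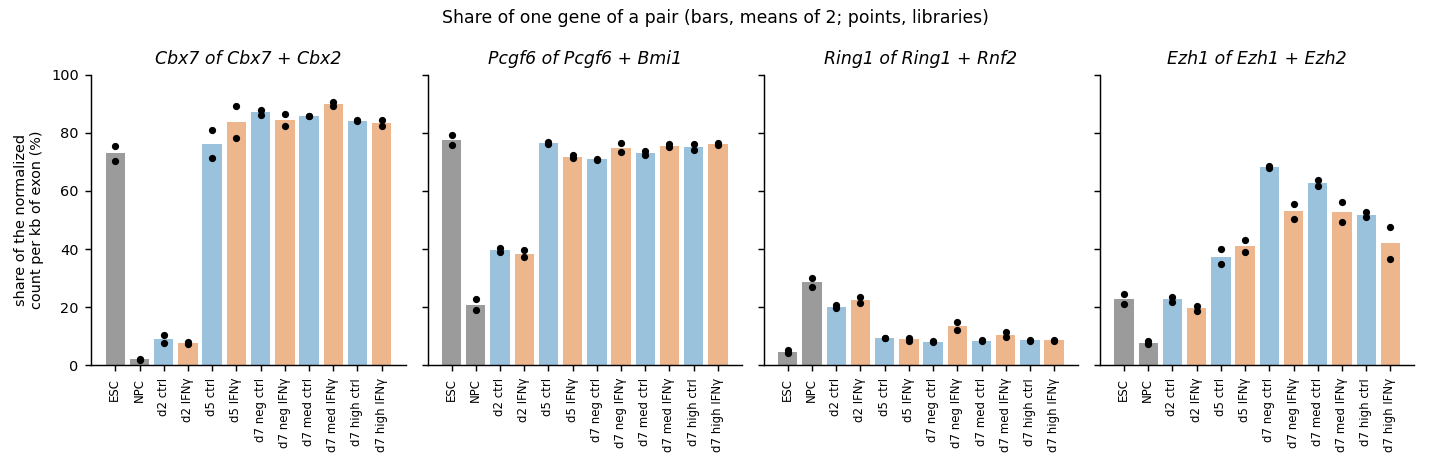
Share of the first gene in the summed normalized count per kb of exon of 4 gene pairs (y axis, %), in 12 populations (x axis), with bars for means of 2 libraries and points for libraries (gray, ESCs and NPCs; blue, control; orange, IFNγ). The Cbx7 share is under 11% in NPCs and at day 2 and over 70% in all other populations, and the Ezh1 share is highest in control X-GFP negative cells at day 7.

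From NPCs to day 2 control cells the genes mostly fell. Of 42, 29 were lower at day 2 and 5 higher, beside 37.6% lower and 31.6% higher of all 15738 genes tested. The median over the genes was -0.40 on the log2 scale, and -0.08 over all genes. All 6 genes of the H3K9 methyltransferase and Trim28 group were lower, and so were both H3K27 demethylase genes, 5 of 6 H3K9 demethylase genes and 4 of 6 PRC1 genes. Day 2 libraries also held feeder RNA, by the Y-linked genes given above, and the 10 fibroblast markers summed to 46599.6 to 67195 normalized counts against 30803 to 43633 in NPCs, which express several of them. Cell cycle genes were lower too, 9 of 12. The part of either in the fall was not tested.

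Ring1 went from 1769 and 1500.4 normalized counts in NPCs to 491 and 469 at day 2, a 3.39-fold fall (log2 difference -1.76 ± 0.11 (SE), adjusted p = 1.03e-04). Cbx2, the CBX subunit gene high in NPCs, went from 3383 and 2925 to 1184 and 1147 (2.7-fold, log2 difference -1.43 ± 0.093 (SE), adjusted p = 1.16e-04). Kdm4b went from 2778 and 2541 to 1172 and 1154 (2.28-fold, log2 difference -1.19 ± 0.080 (SE), adjusted p = 1.24e-04). These were the steepest falls, and none of the 3 overlapped between populations.

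The 5 genes that rose by day 2 were Phf19, Ezh1, Cbx7, Kdm1b and Kdm4c. Phf19 was at 155 and 125 normalized counts in NPCs and 226 and 327 at day 2 (log2 difference 0.96 ± 0.23 (SE), adjusted p = 0.0128), and Cbx7 at 114 and 89.6 against 154 and 204 (log2 difference 0.81 ± 0.23 (SE), adjusted p = 0.0242). Both calls were lost without replicate 2 of the day 2 control. Ezh1, the PRC2 catalytic subunit gene usual in nondividing cells, rose from 317 and 314 to 630.4 and 579.6 (log2 difference 0.93 ± 0.11 (SE), adjusted p = 9.32e-04). Kdm1b, which encodes a demethylase of H3K4 in oocytes, was highest of all populations at day 2, at 1309 and 1351 (log2 difference 0.77 ± 0.10 (SE), adjusted p = 0.00135).

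Between day 2 and day 5 the direction was mostly up. Of 42 genes, 23 were higher at day 5 and 6 lower, beside 34.9% and 35.6% of all 15729 genes, with a median of 0.37 over the genes and 0.00 over all genes. Rescaled to the same total, the median of all genes moved to -0.12 and the counts to 22 and 6. PRC2 had 5 of 7 genes higher and none lower, and all 3 H3K36 and H3K79 methyltransferase genes and both H3K27 demethylase genes were higher. This comparison shares the day 2 control libraries with the one before. The day 2 and day 5 sorts also differed, and the 10 fibroblast markers fell to 3031 to 5297 and the 4 Y-linked genes to 2.66 to 5.89 normalized counts at day 5, while pluripotency markers rose to 31518 to 37619. Of 12 cell cycle genes 9 were higher at day 5 and 2 lower, and all 10 neural markers were lower. The part of the sorts and of these genes in the difference was not tested.

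Cbx7 showed the largest change, from 154 and 204 at day 2 to 1887 and 2349 normalized counts at day 5, or 11.8-fold (log2 difference 3.56 ± 0.17 (SE), adjusted p = 6.60e-06). Jarid2, which helps recruit PRC2, went from 2171 and 2402 to 7076 and 8547 (3.4-fold, log2 difference 1.77 ± 0.10 (SE), adjusted p = 1.24e-05). Suz12, the scaffold subunit gene of PRC2, went from 2649 and 3141 to 8151 and 9462 (3.04-fold, log2 difference 1.61 ± 0.10 (SE), adjusted p = 2.01e-05). The libraries of day 2 and day 5 did not overlap for these genes.

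The 6 genes that fell were Bmi1, Cbx2, Suv39h1, Ring1, Kdm4a and Kdm1b. Bmi1 went from 1082 and 1122 to 354 and 389.9 normalized counts (2.96-fold, log2 difference -1.57 ± 0.10 (SE), adjusted p = 2.05e-05) and Cbx2 from 1184 and 1147 to 501 and 359.7 (2.74-fold, log2 difference -1.46 ± 0.16 (SE), adjusted p = 1.80e-04). Suv39h1, an X-linked H3K9 trimethylase gene, went from 3153 and 3162 to 1728 and 1814 (log2 difference -0.83 ± 0.067 (SE), adjusted p = 4.77e-05). At day 5, Cbx7 made up 71.2% and 81.1% of Cbx7 and Cbx2 per kb, up from 7.85% and 10.5% at day 2, and Pcgf6 76.7% and 76.0% of Pcgf6 and Bmi1, up from 40.5% and 38.9%. Ring1 made up 9.52% and 9.26% of Ring1 and Rnf2, down from 20.8% and 19.6% at day 2 and still above the ESC libraries.

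**Figure D3:**
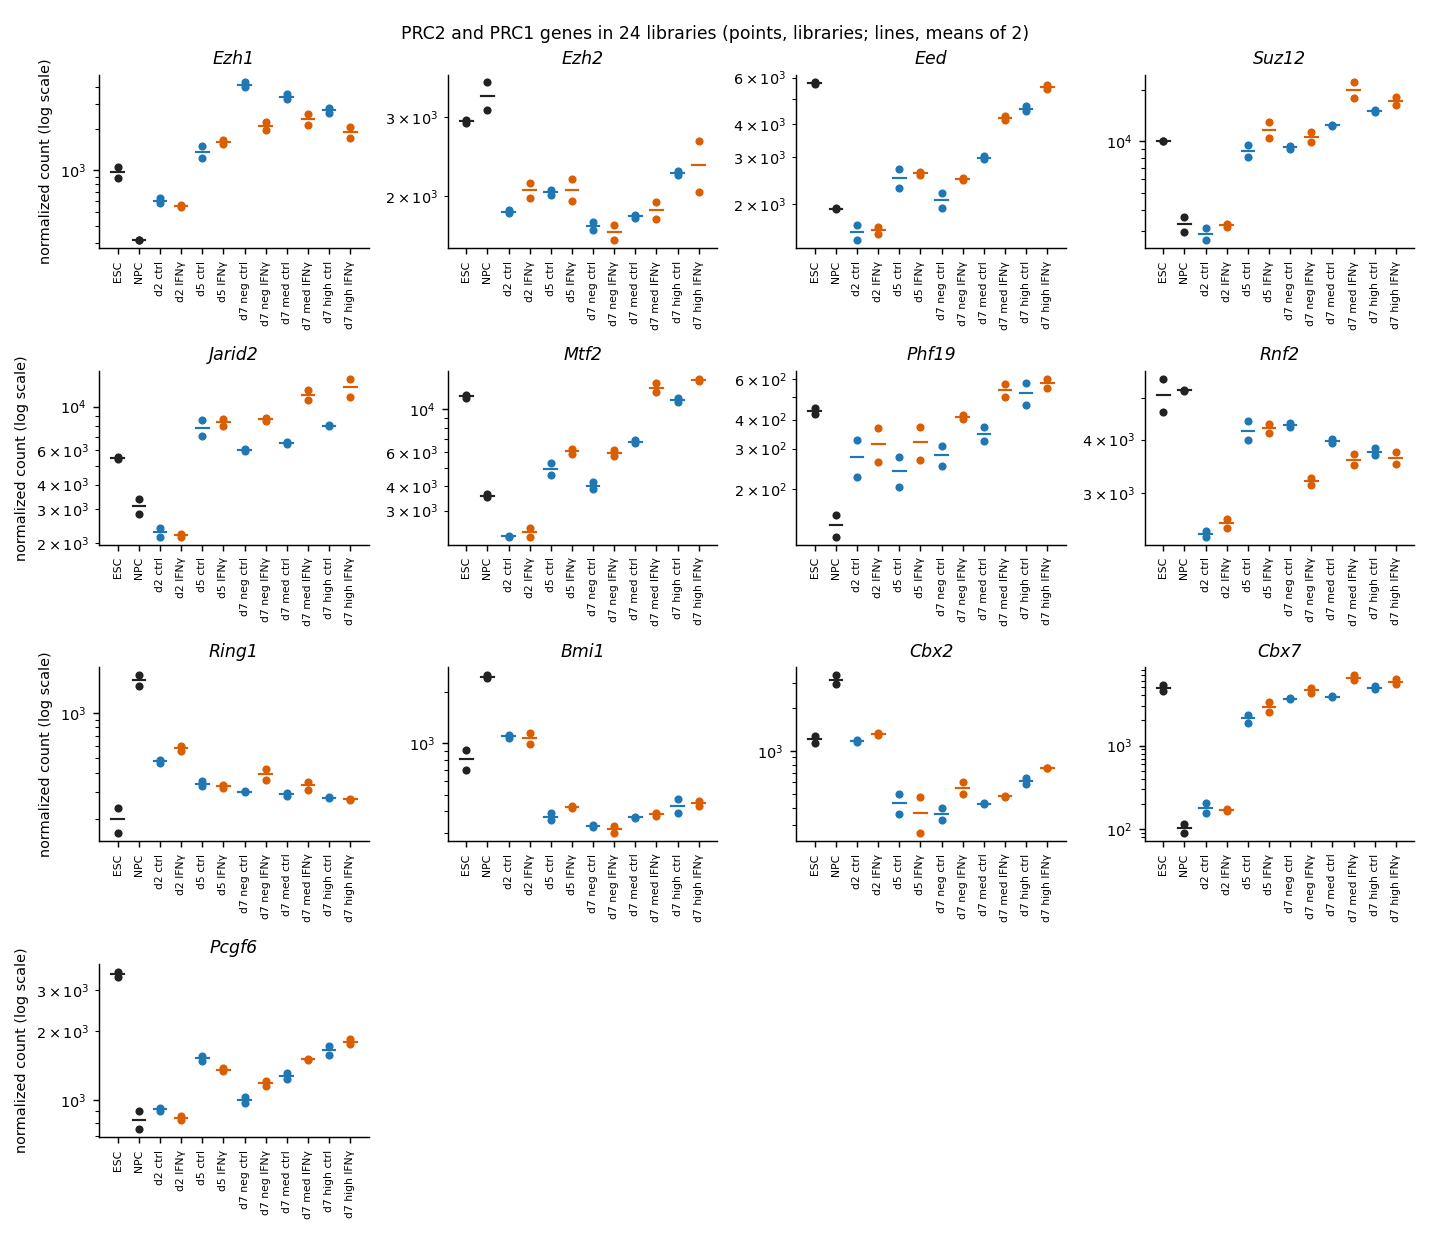
Normalized counts (y axes, log scale, each panel with its own range) of the 7 PRC2 and 6 PRC1 genes in 12 populations (x axes), with points for libraries and lines for means of 2 (black, ESCs and NPCs; blue, control; orange, IFNγ). At day 7 Eed, Jarid2 and Mtf2 are higher and Ezh1 lower in IFNγ-treated than in control cells of each X-GFP class, with no overlap.

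At day 7, control cells that stayed X-GFP negative differed from day 5 cells in 29 of the 42 genes, of which 13 were higher and 16 lower (34.2% and 29.5% of all 15225 genes). All 3 H3K36 and H3K79 methyltransferase genes, 3 of 4 H3K4 methyltransferase genes and 4 of 6 genes of the H3K9 group were lower, whereas 4 of 5 H3K4 demethylase genes and 4 of 6 H3K9 demethylase genes were higher and none of the latter lower. Exceptions were Kmt2c among the H3K4 methyltransferase genes, which was higher, and Kdm1b among the H3K4 demethylase genes, which was lower, and of the H3K36 and H3K27 demethylase genes 1 of 3 and 1 of 2 were higher. PRC2 had 4 of 7 genes lower and 1, Ezh1, higher. Cell cycle genes were lower as well, 11 of 12. Their part in the result was not tested.

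Ezh1 rose from 1487 and 1224 at day 5 to 4289 and 3957 normalized counts, its highest level in any population (3.05-fold, log2 difference 1.61 ± 0.10 (SE), adjusted p = 3.97e-05). Kdm4b rose from 1220.3 and 1005 to 3339 and 3309 (3.0-fold, log2 difference 1.58 ± 0.10 (SE), adjusted p = 3.90e-05) and Kdm7a, a demethylase gene for H3K9 and H3K27, from 1501 and 1298 to 3352 and 3049 (2.29-fold, log2 difference 1.19 ± 0.093 (SE), adjusted p = 6.37e-05). All of these were above both ESCs and day 5 cells. The largest falls were in Kmt2d, from 3252 and 3479 to 1962 and 2006 (log2 difference -0.76 ± 0.071 (SE), adjusted p = 1.10e-04), Pcgf6, from 1477 and 1561 to 979 and 1039 (log2 difference -0.59 ± 0.083 (SE), adjusted p = 6.58e-04), and the H3K36 methyltransferase gene Nsd1, from 8995 and 9893 to 6119 and 6578 (log2 difference -0.57 ± 0.071 (SE), adjusted p = 3.63e-04).

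Within day 7, control X-GFP high cells were set against X-GFP negative cells. Here 23 genes were higher in X-GFP high cells and 14 lower, beside 34.7% and 39.3% of all 15574 genes. Rescaled to the same total, the median of all genes moved from -0.04 to 0.06 and the counts to 24 higher and 6 lower. PRC2 had 6 of 7 genes higher and only Ezh1 lower, PRC1 had 4 of 6 higher, and both H3K27 demethylase genes were lower. All 10 pluripotency markers and all 12 cell cycle genes were higher in X-GFP high cells too, and their part was not tested. Of 8 fibroblast markers tested, 6 were lower and 2 higher, and of 6 neural markers 4 were lower and 1 higher. Of 8 IFNγ response genes, 7 were lower. The part of these was not tested either.

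Mtf2 was at 3859 and 4197 normalized counts in X-GFP negative, 6665 and 6904 in medium and 10935 and 11445 in high cells, a 2.78-fold difference between negative and high (log2 difference 1.47 ± 0.061 (SE), adjusted p = 1.16e-08). Trim28 was at 16759 and 17796, 27058 and 27351 against 44010.3 and 46245 in the same order (2.61-fold, log2 difference 1.39 ± 0.057 (SE), adjusted p = 1.15e-08). Eed, which binds H3K27me3 in PRC2, was at 1938 and 2197, 2947 and 3031 against 4475 and 4674 (2.22-fold, log2 difference 1.15 ± 0.071 (SE), adjusted p = 1.49e-07). Each of these levels was lowest in negative, intermediate in medium and highest in high cells, without overlap.

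The opposite order was found for Kdm7a, at 3352 and 3049 in negative, 2294 and 2333 in medium and 1725 and 1659 in high cells (log2 difference -0.92 ± 0.068 (SE), adjusted p = 5.38e-07). Kdm2a, an H3K36 demethylase gene whose product binds CpG islands, was at 4785 and 4740.2, 3737 and 3712 against 3016 and 3126 (log2 difference -0.63 ± 0.057 (SE), adjusted p = 2.38e-06), and Ezh1 at 4289 and 3957, 3516 and 3263 against 2828 and 2575 (log2 difference -0.61 ± 0.069 (SE), adjusted p = 1.25e-05). Kdm2b, the paralog of Kdm2a whose product recruits a variant PRC1, differed the other way, at 1573 and 1616 in negative and 3215 and 3655 in high cells (log2 difference 1.10 ± 0.073 (SE), adjusted p = 2.30e-07).

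X-GFP high control cells were then set against ESCs, the state that reprogramming approaches. Of 42 genes, 13 were higher in ESCs and 18 lower (37.8% and 37.9% of all 15427 genes). The PRC1 genes were mostly higher in ESCs, 4 of 6, and all 4 H3K4 methyltransferase genes were lower. Of the markers tested, 7 of 10 pluripotency markers were higher in ESCs and 3 lower, and 9 of 12 cell cycle genes were higher and 2 lower. Lower in ESCs were 5 of 6 fibroblast markers (1 higher), 4 of 5 neural markers and 5 of 7 IFNγ response genes (1 higher). The part of these markers was not tested. Pcgf6 was at 3605 and 3417 normalized counts in ESCs and 1572 and 1719.6 in X-GFP high cells (2.13-fold, log2 difference 1.09 ± 0.063 (SE), adjusted p = 3.00e-09), Cbx2 at 1259.8 and 1142 against 582 and 645 (log2 difference 0.97 ± 0.084 (SE), adjusted p = 1.76e-07), and Bmi1 at 916 and 703 against 391 and 475 (log2 difference 0.90 ± 0.12 (SE), adjusted p = 1.93e-05). None of the 3 overlapped.

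Higher in X-GFP high cells were Kdm4b, at 2678 and 2749.6 against 740.0 and 689.9 in ESCs (3.79-fold, log2 difference -1.92 ± 0.067 (SE), adjusted p = 3.23e-11), Kdm7a, at 1725 and 1659 against 526 and 620.5 (2.96-fold, log2 difference -1.56 ± 0.085 (SE), adjusted p = 1.73e-09), and Ezh1, at 2828 and 2575 against 884 and 1058 (2.79-fold, log2 difference -1.48 ± 0.083 (SE), adjusted p = 2.40e-09). These genes were also the 3 that rose most from day 5 to X-GFP negative cells at day 7, and in X-GFP high cells their levels lay between those of X-GFP negative cells and ESCs. Cbx7, in contrast, was at 4738 and 5119 in X-GFP high cells and 4563 and 5336 in ESCs, a difference of 0.00 ± 0.070 (SE) that was not called. For Mtf2 and Kdm5b the differences were 0.05 ± 0.050 and 0.03 ± 0.054 (SE), also not called.

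IFNγ was added to ask how its early presence acts on reprogramming. During treatment, none of the 42 genes passed the threshold of limma in a fit of the 4 libraries with no replicate block. At day 2 the count was 0 in either direction, beside 5.03% higher and 3.45% lower of all 15697 genes, and at day 5 it was 0 beside 1.65% and 0.535% of all 15133. At an unadjusted p under 0.05 in this fit there were 10 genes at day 2, 9 of them higher with IFNγ, and 7 at day 5, 6 of them higher. The share of all genes at this unadjusted p is not given here, so these counts cannot be read against it. DESeq2 on the whole reads called 2 genes at day 2 and 3 at day 5, and edgeR called 0 at both. Limma called 1 and 8 with all 24 libraries in a joint fit, and 13 and 11 with a replicate block. The count of 0 thus depended on the fit. Shares of all genes called under these other fits are not given here, and no label ties libraries of the same number. In the fit with no block, all 8 genes of an IFNγ response list were called higher at day 2 and at day 5. They summed to 80412 to 81133 normalized counts with IFNγ and 7148 to 7261 without at day 2. Of the 10 fibroblast markers 5 were lower with IFNγ at day 2, with sums of 28152 to 33364 against 46599.6 to 67195 in control. Of 10 neural markers 3 were higher with IFNγ at day 2 and 0 lower. The part of feeder RNA and of these markers at day 2 was not tested.

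The genes called by DESeq2 at day 2 were Kmt2a and Kmt2c, H3K4 methyltransferase genes. Kmt2a was at 2208 and 2222 normalized counts without and 2534 and 3081 with IFNγ, and Kmt2c at 2365 and 2530.0 against 2747 and 3274, with limma differences of 0.34 ± 0.095 and 0.29 ± 0.092 (SE) that missed the threshold. At day 5 they were Cbx7, Mtf2 and Suz12. Suz12 was at 8151 and 9462 in control and 10410.0 and 13004 with IFNγ (0.41 ± 0.12, SE, limma), Cbx7 at 1887 and 2349 against 2556 and 3292 (0.46 ± 0.15), and Mtf2 at 4579 and 5247 against 5851 and 6246 (0.30 ± 0.087). For each of these genes, on the day named, the treated libraries did not overlap with the control libraries and were higher.

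**Figure D4:**
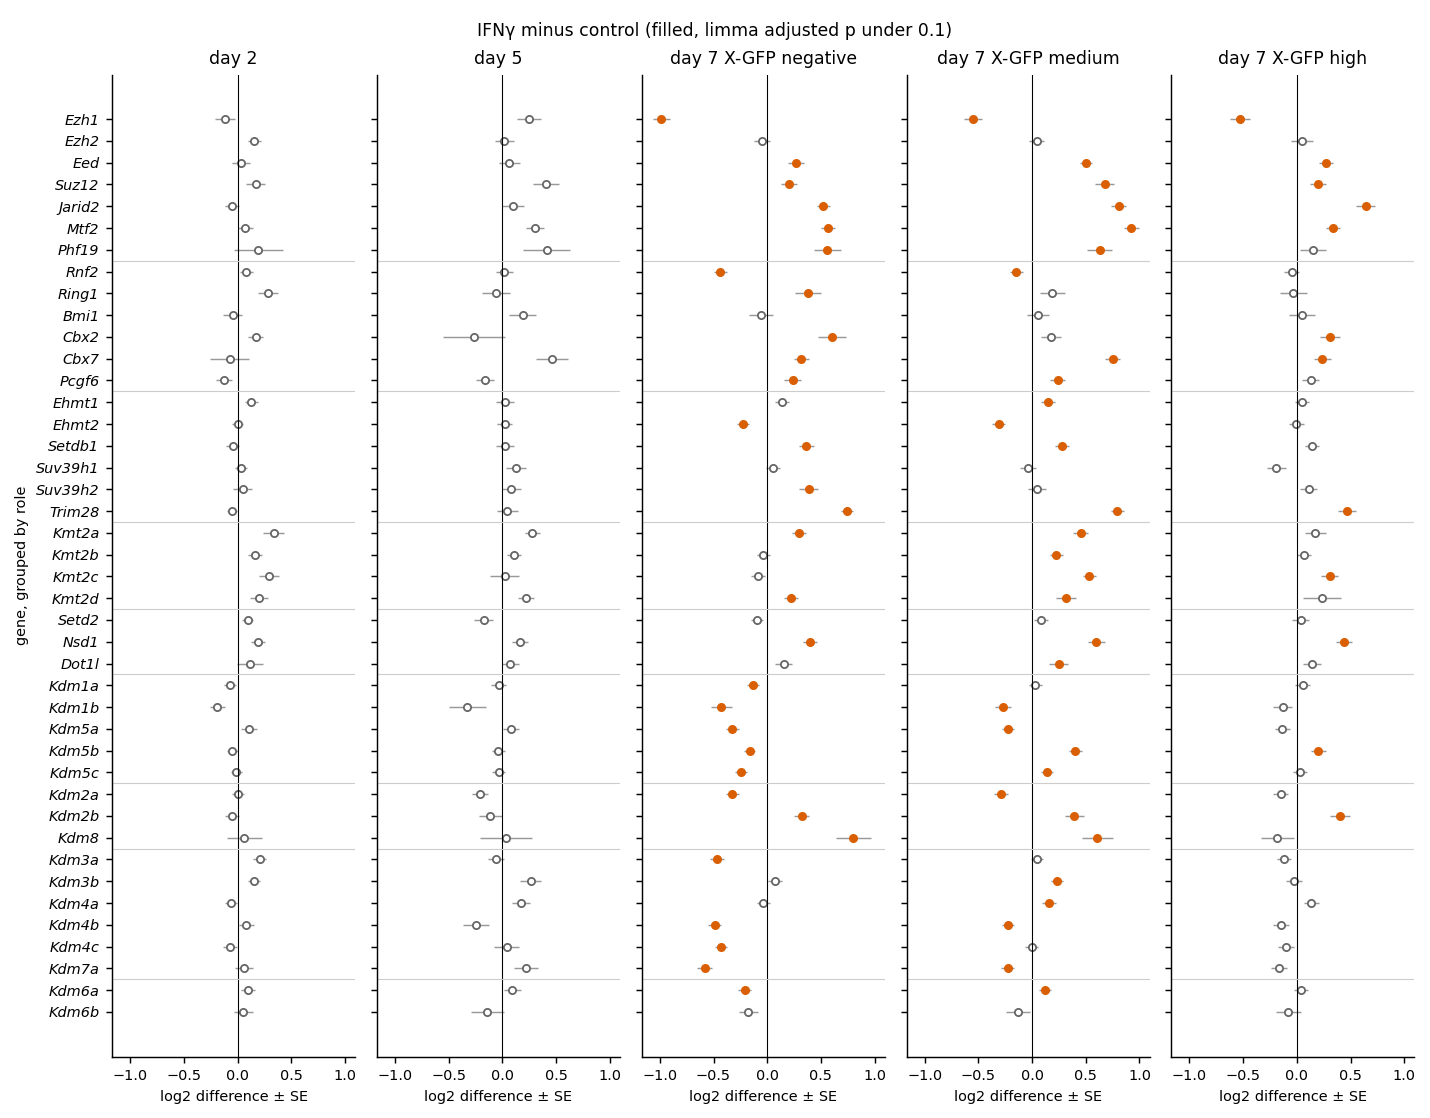
Difference of log2(normalized count + 1) between IFNγ-treated and control cells (x axes, with SE bars from limma) for the 42 tested genes (y axis) at day 2, at day 5 and in the 3 X-GFP classes at day 7. Filled points passed an adjusted p under 0.1, which holds for 0, 0, 31, 31 and 12 genes from left to right.

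At day 7, after IFNγ had been removed, many of the genes differed. X-GFP negative cells had 17 higher and 14 lower with IFNγ (31.1% and 30.8% of all 15531 genes), in X-GFP medium cells 23 and 8 (33.3% and 29.6% of 15595), and in X-GFP high cells 11 and 1 (18.1% and 20.4% of 15598). For the first, values rescaled to the same total moved the median of all genes from 0.02 to 0.17 and the counts to 21 higher and 9 lower, and Kdm1a changed direction. The last count went to 2 and 1 without replicate 1 of the control and to 15 and 4 without replicate 1 of the IFNγ-treated cells. On all libraries, 8 (Eed, Suz12, Jarid2, Mtf2, Cbx7, Trim28, Nsd1 and Kdm2b) were higher and 1, Ezh1, was lower with IFNγ in all 3 classes, which were sorted from the same day and treatments, beside 12.3% higher and 16.9% lower in all 3 of the 14712 genes tested in each. Without replicate 1 of the X-GFP high control, at most 2 of the 8 were called in every class.

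These shifts came with others. In X-GFP negative cells 9 of 10 pluripotency markers and 11 of 12 cell cycle genes were higher with IFNγ, in medium cells all 10 and all 12, and in high cells 7 and 5, with none lower. Pluripotency markers summed to 31459 to 34761 normalized counts in control and 50674 to 55258 in IFNγ-treated X-GFP negative cells. The 4 Y-linked feeder genes summed to at most 12.5 in day 7 libraries. The fibroblast markers, of which 2 of 8 tested were lower and 1 higher, summed to 8848 to 10450.3 in control and 2258 to 2308 in IFNγ-treated X-GFP negative cells, carried mostly by Dcn and Fbln2. In medium cells 5 of 8 fibroblast markers were lower and 2 higher, with sums of 8949 to 9967 and 1601 to 1689.6. Of the neural markers tested, 1 of 8 was lower and 2 higher in negative cells. In medium cells 4 of 6 neural markers were lower and 1 higher, and in high cells 3 of 6 were lower and 1 higher. IFNγ response genes were still higher in treated cells, 7 of 8 in negative and in medium cells and 6 of 7 in high cells. The part of these markers in the differences was not tested.

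The 5 PRC2 genes outside the catalytic pair (Eed, Suz12, Jarid2, Mtf2 and Phf19) were all higher with IFNγ in X-GFP negative and medium cells, and 4 of the 5 in high cells. In X-GFP medium cells Mtf2 was at 6665 and 6904 normalized counts in control and 13593 and 12212 with IFNγ (1.9-fold, log2 difference 0.93 ± 0.066 (SE), adjusted p = 2.80e-06). In the same class Jarid2 was at 6473 and 6631 in control against 10768 and 12166 with IFNγ (1.75-fold, log2 difference 0.80 ± 0.068 (SE), adjusted p = 7.63e-06), and in X-GFP high cells at 7964 and 8046 against 11231 and 13874 (1.56-fold, log2 difference 0.64 ± 0.090 (SE), adjusted p = 3.02e-04), the largest rise there. Both treated and control libraries of every day 7 class were above the ESC libraries of Jarid2, at 5512 and 5395.

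Ezh1 and Ezh2, the alternative catalytic subunit genes, did not follow the rest. Ezh1 fell with IFNγ from 4289 and 3957 to 2214 and 1953 in X-GFP negative cells (1.98-fold, log2 difference -0.99 ± 0.079 (SE), adjusted p = 1.38e-05). In medium cells it went from 3516 and 3263 to 2525 and 2121 (log2 difference -0.55 ± 0.085 (SE), adjusted p = 3.82e-04) and in high cells from 2828 and 2575 to 2059.8 and 1702 (log2 difference -0.53 ± 0.094 (SE), adjusted p = 0.00142), with no overlap in any class. Ezh2 differed by -0.05 ± 0.073, 0.04 ± 0.069 and 0.05 ± 0.10 (SE) in the same order, none of them called. The Ezh1 share of Ezh1 and Ezh2 per kb was 68.7% and 67.8% in X-GFP negative cells without IFNγ and 55.5% and 50.4% in those with it, beside 21.2% and 24.5% in ESCs.

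Of the PRC1 genes, Cbx7 was higher with IFNγ in each class, at 3907 and 3808 in control and 6959 and 6038 in treated X-GFP medium cells (log2 difference 0.75 ± 0.072 (SE), adjusted p = 1.89e-05). Cbx2 went from 327 and 395 to 495 and 601 in X-GFP negative cells (1.52-fold, log2 difference 0.60 ± 0.13 (SE), adjusted p = 0.00423). Rnf2 was lower in medium (-0.15) and in negative cells, from 4371 and 4277 to 3141 and 3252 (log2 difference -0.44 ± 0.060 (SE), adjusted p = 3.12e-04), where Ring1 was higher (log2 difference 0.38 ± 0.12 (SE), adjusted p = 0.0236). Pcgf6 was at 931 and 902 in control and 859 and 820.3 in treated cells at day 2 (log2 difference -0.13 ± 0.074 (SE), adjusted p = 0.391). At day 7 it was called higher with IFNγ in X-GFP negative (0.24) and medium cells (0.24).

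In the H3K9 group, Trim28 rose with IFNγ from 16759 and 17796 to 28898 and 28779 in X-GFP negative (1.67-fold, log2 difference 0.74 ± 0.057 (SE), adjusted p = 1.10e-05), from 27058 and 27351 to 47313 and 46991 in medium (1.73-fold, log2 difference 0.79 ± 0.061 (SE), adjusted p = 4.44e-06) and from 44010.3 and 46245 to 61163 and 63343 in high cells (1.38-fold, log2 difference 0.46 ± 0.082 (SE), adjusted p = 0.0014). The last call was lost without replicate 1 of the control. Setdb1, the H3K9 methyltransferase gene that works with TRIM28, was higher in negative (0.36) and medium cells (0.28). Ehmt2, whose product makes H3K9me2, was lower in both (in negative cells it was not called when rescaled), at 5087 and 4897 in control and 3862 and 4181 in treated medium cells (log2 difference -0.31 ± 0.063 (SE), adjusted p = 0.00191).

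H3K4 methyltransferase genes were all 4 higher with IFNγ in X-GFP medium cells, by 0.22 (Kmt2b) to 0.53 (Kmt2c) on the log2 scale. In negative cells 2 of 4 were higher and in high cells 1, Kmt2c. Nsd1 was higher in every class, and in high cells went from 8054 and 8225 to 10319 and 11782 (1.35-fold, log2 difference 0.44 ± 0.076 (SE), adjusted p = 0.0012). The other H3K36 methyltransferase gene, Setd2, was called in none of the 3 classes (-0.10, 0.08 and 0.04). Dot1l, the H3K79 methyltransferase gene, was higher in medium cells only by this test (log2 difference 0.25 ± 0.089 (SE), adjusted p = 0.0383).

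With IFNγ in X-GFP negative cells, all 5 H3K4 demethylase genes were lower, from -0.13 (Kdm1a) to -0.43 (Kdm1b), and so were 4 of 6 H3K9 demethylase genes. Rescaled to the same total, 2 of the 5 (Kdm1b and Kdm5a) and the same 4 H3K9 demethylase genes (Kdm3a, Kdm4b, Kdm4c and Kdm7a) were called lower, and Kdm1a changed direction. Kdm7a was at 3352 and 3049 in control and 2165 and 2109 in treated cells (1.5-fold, log2 difference -0.58 ± 0.070 (SE), adjusted p = 1.39e-04) and Kdm4b at 3339 and 3309 against 2337 and 2396 (1.4-fold, log2 difference -0.49 ± 0.062 (SE), adjusted p = 1.80e-04). The largest rise in that class was in a low gene, Kdm8, at 97.6 and 84.8 against 169.7 and 149 (1.74-fold, log2 difference 0.80 ± 0.16 (SE), adjusted p = 0.00293). Kdm2a was lower in medium cells, at 3737 and 3712 against 2921 and 3192 (log2 difference -0.29 ± 0.064 (SE), adjusted p = 0.00363), where Kdm2b was higher (log2 difference 0.39 ± 0.089 (SE), adjusted p = 0.00374). Kdm5b, Kdm5c and Kdm6a were lower with IFNγ in negative cells, though not when rescaled to the same total, and higher in medium cells.

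Whether the IFNγ effect differed between X-GFP high and X-GFP negative cells was tested as an interaction. Of 42 genes 12 were called, 10 with a more positive effect in high cells and 2 with a less positive one (9.43% and 13.3% of all 15764 genes). This split depended on the scale. Rescaled to the same total, the median of all genes moved from -0.03 to -0.20, the counts turned to 1 and 11, and 3 of the 12 genes, Kdm7a, Kdm8 and Trim28, stayed called. Of these 3, Trim28 was not called with no filter on low values, and Kdm7a was not called in a joint fit of all 24 libraries. Kdm8 had the widest difference (log2 difference -0.98 ± 0.22 (SE), adjusted p = 0.0132), being called higher with IFNγ in negative cells and at 202 and 202 in control and 194 and 163 in treated high cells. Trim28 had a smaller effect in high cells (log2 difference -0.28 ± 0.087 (SE), adjusted p = 0.0551) and Kdm7a a less negative one (log2 difference 0.42 ± 0.096 (SE), adjusted p = 0.0158).

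Of the X-linked genes, allelic values were deposited as the proportion of reads from X mus, with 1 value per population, and the depth behind them is unknown. Kdm5c and Kdm6a are known to escape X inactivation. The values cover a filtered set of 316 X-linked genes. The study's methods describe choosing genes by a minimum share of expression from the CAST/EiJ X chromosome in all populations. Medians are thus over a selected set, not all X-linked genes. In NPCs the median over these 316 genes was 0.00107, while Kdm6a was at 0.349, Kdm5c at 0.253 and Suv39h1 at 0.187. These are authors' values with no replicate and no test. All 3 were thus read partly from X mus in NPCs, and they stayed between 0.187 and 0.409 through day 5 and in X-GFP negative cells at day 7, where the median gene was at 0.00896 in control and 0.0188 in IFNγ-treated cells.

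In X-GFP medium cells, which the gate chose for X mus activity, Suv39h1 was at 0.450 in control and 0.479 in IFNγ-treated cells, Kdm6a at 0.469 and 0.472, and Kdm5c at 0.353 and 0.401, above medians of 0.11 and 0.236. In control X-GFP high cells they were at 0.582, 0.474 and 0.444, in those treated with IFNγ at 0.496, 0.491 and 0.456, and in ESCs at 0.628, 0.519 and 0.487. Between control and treated cells, the value of Suv39h1 was thus lower with IFNγ in high cells and higher in medium cells. Total expression did not follow the allelic share in a common direction. Suv39h1 was lower in ESCs than in NPCs (1224 and 1328 against 3493 and 3569 normalized counts, log2 difference -1.47 ± 0.068 (SE), adjusted p = 9.82e-06), whereas Kdm5c (log2 difference 0.60 ± 0.061 (SE), adjusted p = 2.10e-04) and Kdm6a (log2 difference 0.70 ± 0.076 (SE), adjusted p = 2.72e-04) were higher. Exons of an antisense gene overlap 14.6% of the exon bases of Suv39h1 and 24.6% of those of Kdm3b, and the strand setting of the counting is not given in the sources used here.

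**Figure D5:**
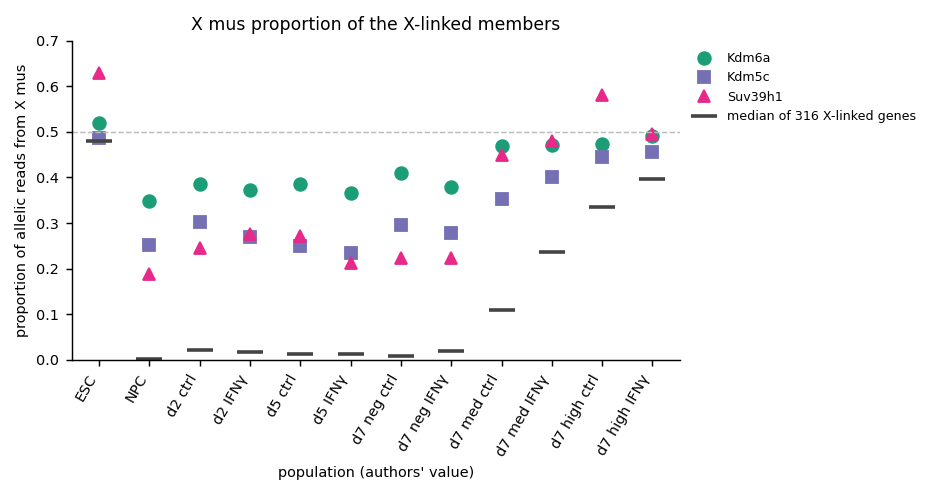
Proportion of allelic reads from X mus (y axis) for Kdm6a, Kdm5c and Suv39h1 and the median of the 316 genes with such values (dashes) in 12 populations (x axis), with 1 authors' value per population and the dashed line at equal reads from both chromosomes. The 3 genes lie between 0.187 and 0.409 where the median is 0.0212 or less.

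Other genes of the same machinery were counted beside these 43, from lists of 70 further PRC1 and PRC2 subunits, COMPASS subunits, heterochromatin genes, methyltransferases and demethylases. Between ESCs and NPCs 30 of 68 tested were higher in ESCs and 31 lower. From NPCs to day 2, 40 of 69 were lower and 15 higher, and from day 2 to day 5, 33 were higher and 24 lower. From day 5 to X-GFP negative cells at day 7, 18 of 67 were higher and 29 lower, from negative to high cells 28 of 68 and 26, and in ESCs against X-GFP high cells 30 of 67 and 16. With IFNγ, Phc2, a PRC1 subunit gene (log2 difference 0.30 ± 0.064, SE), and Tasor, a gene of the HUSH silencing complex (0.32 ± 0.059), were called higher at day 2, and Aebp2, a PRC2 accessory gene (0.47 ± 0.083), at day 5, while of 67 tested at day 7, X-GFP negative cells had 26 higher and 19 lower, medium cells 29 and 13 and high cells 22 and 6. No list was tested as a set.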

How the data were processed

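RNA-seq was made from stranded, ribosomal RNA-depleted libraries of 12 cell populations, 2 libraries each. Per the labels and the study's methods, reads were aligned with STAR to mm10 with strain SNPs masked, allele-filtered with WASP, counted per gene with HTSeq (0.6.1) and normalized with DESeq2. The deposited signal values are thus read counts divided by 1 size factor per library. Every value was a whole multiple of what 1 read is worth (tolerance 0.01), so that whole reads could be recovered for count-based alternatives. The allelic file of the authors gives fractions of X mus reads with 1 value per population, whose pooling of replicates is not given in the sources used here.

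The 43 genes and all lists were chosen with earlier results of these data known. Values were taken as log2(normalized count + 1), and genes with a mean above 10 in the libraries compared were tested with limma (3.58.1, lmFit and eBayes with trend, R 4.3.3), with Benjamini-Hochberg adjustment over all genes tested and a threshold of 0.1. In each comparison the called genes without overlap between libraries were ranked by log2 difference, and the 3 at either end were given in full, and other values, such as those of paralogs, were chosen after they were seen. Alternatives were a pseudocount of 0.1, no filter, a joint fit of all 24 libraries, rescaling to equal totals, a replicate block, DESeq2 (1.42.0) and edgeR (4.0.16) on whole reads, and each library left out in turn. Scripts were tested on simulated data. Exon lengths came from GENCODE M21 (release number 21), which held 95.2% of the gene identifiers, and promoters from RefSeq. Totals of 24746109 to 37056508 reads per library set the counting precision.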

Additional observations from a re-analysis of the deposited data

Results flagged for a closer look

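The effect of IFNγ at day 7 differed between X-GFP high and X-GFP negative cells in 12 of the 42 genes by the interaction term of limma over 8 libraries (adjusted p under the threshold over all genes tested). As differences of the log2 effect in high cells minus that in negative cells, the value was more positive in high cells for 10 genes. Among Polycomb genes it was 0.46 for Ezh1 and 0.39 for Rnf2. The other methyltransferase gene was Kmt2c, at 0.39. Among demethylase genes it was 0.42 for Kdm7a, 0.37 for Kdm5b, 0.35 for Kdm3a, 0.34 for Kdm4b, 0.33 for Kdm4c, 0.27 for Kdm5c and 0.25 for Kdm6a. It was negative for 2 genes, -0.98 for Kdm8 and -0.28 for Trim28.

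These values move with the scale on which libraries are compared. With each library rescaled to the same total, all 12 kept their sign, but the 10 positive values lay between 0.08 (Kdm6a) and 0.29 (Ezh1), Kdm8 was at -1.15 and Trim28 at -0.45, and of the 12 only Kdm7a, Kdm8 and Trim28 passed the threshold. Trim28 was not called with no filter on low values, nor Kdm7a in a joint fit of all 24 libraries. What sets the scale difference was not tested.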

How the results depend on the processing

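With a replicate block, members called for the IFNγ effect numbered 13 at day 2 (12 higher) and 11 at day 5 (8 higher), in place of 0, and 21 for the interaction, in place of 12. With all 24 libraries in 1 fit they numbered 1 at day 2 and 8 at day 5, and with DESeq2 2 and 3. The share of all genes called under these fits is not given here, so these counts cannot be read against it. Leaving out each library in turn gave 0 to 2 at day 2 (2 without replicate 1 of the IFNγ-treated cells), 0 to 5 at day 5 (5 without replicate 1 of the IFNγ-treated cells), 3 to 19 in X-GFP high cells at day 7 and 8 to 17 for the interaction. The causes were not tested. The other 78 totals of higher and lower calls under alternatives with all libraries stayed within 1.5 times, as did 48 with a library left out. Their split could still move, as rescaling took the interaction from 10 higher and 2 lower to 1 and 11, and X-GFP high against negative control cells from 23 and 14 to 24 and 6. Of the values ranked and given in full, none changed direction, and 3 missed the threshold with a library left out. Values outside that ranking could change direction, as Kdm1a did in X-GFP negative cells with IFNγ when rescaled. Same-numbered libraries deviated together with r from -0.264 (day 2 control and NPCs) to 0.603 (day 2 with and without IFNγ) across genes, and in the 5 comparisons of IFNγ-treated with control libraries from 0.036 to 0.603. They were taken to share only a number because no label ties them and each comparison has only 2 pairs, so which of the counts for IFNγ is closer was not tested. For day 2 control against NPCs the count was 34, 29 with the block and 36 with the numbers crossed, a pairing added after the data were seen. With 2 libraries per population, small differences limited by their spread could not be told from none.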
